A study of Mus musculus with 3 samples.

Results

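Of the genes that carry, make, break down or answer to retinoic acid, 9 were followed in mouse cardiac myofibroblasts that were attached to plastic, lifted into suspension and allowed to attach again. They were Rbp4, Stra6, Crabp1, Crabp2, Aldh1a1, Aldh1a2, Dhrs3, Cyp26b1 and Rarb. With earlier results of these data known, the set was chosen by what it does in retinoid handling and because the Rbp4 signal was low after re-adhesion. The last criterion used the difference between the re-adherent and the adherent array, so every value from that pair of arrays is given as a description and supports nothing about the set. Of the 9 genes, 8 were measured, meaning well above background on at least 1 array, out of 15393 genes measured in all. Stra6 stayed near background on all 3 arrays.

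Myofibroblasts are the contractile, matrix-producing fibroblasts of an injured heart. The cells of all 3 groups came from hearts of male C57BL/6J mice collected on day 3 of an infarct made by tying off the left anterior descending coronary artery for good, and 1 label gives an age of 8 weeks while the treatment text gives 10 weeks. Digested heart cells attached to plastic overnight, and cells carrying the leukocyte protein CD45 were removed with magnetic beads. Adherent cells were those kept on plastic plates, non-adherent cells were moved into suspension, and re-adherent cells were put back on plates. The groups were made one after another, so time in culture and state of attachment cannot be told apart, and no uninjured heart was among them. The authors also report that cell number fell during suspension, which they put down to death of detached cells. Loss of cells cannot be told apart from attachment either. Each group had 1 one-colour array of RNA mixed from several hearts, all on the same slide, so there was no replicate check of any difference below and no test between groups was possible. The errors given are technical ones, from the error that the scanner software assigned to each spot.

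Retinol travels in blood bound to RBP4 and can enter cells through the receptor STRA6. Inside the cell it is oxidised to retinal and then, by the ALDH1A enzymes, to retinoic acid, which is bound by CRABP proteins, acts on nuclear RAR and RXR receptors and is broken down by CYP26 enzymes. DHRS3 runs the first step backwards by reducing retinal to retinol. In the heart, retinoic acid made by Aldh1a2 is known from the epicardium, the cell layer that gives rise to many cardiac fibroblasts. Retinoic acid receptors bind pairs of a hexamer motif, and Rarb is the textbook gene with such a pair in its own promoter.

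The promoters below show that known pair in Rarb and the start of Rbp4, on which the set was chosen. Those of Aldh1a1 and Cyp26b1, which were both lowest in suspension, are also shown. They are RefSeq windows of 250 bases before to 50 bases after a gene's start on GRCm38.p6, written 5′ to 3′ on the strand of the gene. Capitals mark a hexamer spelled AGGTCA or, in its other forms, spelled AGTTCA, or else spelled GGTTCA, or else spelled GGGTCA, searched on both strands, a pair of hexamers in the same direction with its spacer, and TATAAA on the strand of the gene. The Rarb window lies at chr14:16575427-16575726 on the minus strand, the Rbp4 window at chr19:38124762-38125061 on the minus strand, the Aldh1a1 window at chr19:20601718-20602017 on the plus strand and the Cyp26b1 window at chr6:84593761-84594060 on the minus strand.
Rarb: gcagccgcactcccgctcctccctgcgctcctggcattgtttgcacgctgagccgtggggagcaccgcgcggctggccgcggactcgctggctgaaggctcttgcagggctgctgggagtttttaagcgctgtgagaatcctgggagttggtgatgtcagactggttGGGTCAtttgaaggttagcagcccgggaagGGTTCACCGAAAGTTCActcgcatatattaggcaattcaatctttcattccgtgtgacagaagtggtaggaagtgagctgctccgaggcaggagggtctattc
Rbp4: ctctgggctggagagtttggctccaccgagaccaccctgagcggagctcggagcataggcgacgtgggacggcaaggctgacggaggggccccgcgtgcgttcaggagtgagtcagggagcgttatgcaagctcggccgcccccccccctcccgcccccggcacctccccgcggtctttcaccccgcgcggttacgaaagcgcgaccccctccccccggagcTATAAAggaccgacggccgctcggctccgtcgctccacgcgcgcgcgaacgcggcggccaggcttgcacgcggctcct
Aldh1a1: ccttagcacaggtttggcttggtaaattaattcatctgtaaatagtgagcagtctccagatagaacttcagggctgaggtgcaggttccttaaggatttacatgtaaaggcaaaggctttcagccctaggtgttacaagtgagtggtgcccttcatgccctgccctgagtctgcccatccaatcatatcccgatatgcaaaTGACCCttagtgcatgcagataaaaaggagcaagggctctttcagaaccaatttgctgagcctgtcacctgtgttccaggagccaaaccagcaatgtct
Cyp26b1: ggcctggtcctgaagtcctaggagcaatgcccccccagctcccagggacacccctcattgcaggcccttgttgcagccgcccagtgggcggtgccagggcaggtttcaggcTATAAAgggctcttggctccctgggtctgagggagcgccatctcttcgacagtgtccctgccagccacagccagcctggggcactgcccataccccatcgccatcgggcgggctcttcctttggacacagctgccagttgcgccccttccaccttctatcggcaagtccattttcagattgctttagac

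The Rarb window held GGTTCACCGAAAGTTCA, a pair of hexamers 5 bases apart that begins at position -53 from the start. Such a pair stood in 32 of 32851 promoter windows of all genes (0.0974%), and in no other of the 15 windows found for 8 of the 9 genes. Pairs 1 or 2 bases apart stood in 0.222% and 0.268% of all windows and in none of the 15. At least 1 single hexamer, those inside a pair included, stood in 4 of the 15 windows, 1 each of Aldh1a1, Rarb, Rbp4 and Stra6, against 43.7% of all windows. That of Rbp4 lies in another of its windows than the one printed. TATAAA stood at position -28 from the start of Rbp4 and at -139 from that of Cyp26b1, and in 8.32% of all windows. These matches describe letters and were not tested as binding sites. No window was listed for Crabp2.

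Suspension came with lower signals of 5 of the 8 measured genes and a higher signal of 1. Aldh1a1, Cyp26b1, Crabp1, Rarb and Aldh1a2 were over 2-fold lower in non-adherent than in adherent cells, and Dhrs3 was over 2-fold higher. By the same measure, 13.8% of all measured genes were lower and 15.8% were higher. The median log2 difference was -1.55 over the 8 genes and -0.05 over all genes. As the genes were chosen with earlier results of these data known, these counts and medians are description only. After re-adhesion Aldh1a1, Cyp26b1 and Crabp1 were over 2-fold higher than in suspension and Dhrs3 and Rbp4 over 2-fold lower, while 14.9% of all genes were over 2-fold higher and 13.9% over 2-fold lower. The median log2 difference was then 0.68 for the 8 genes and 0.04 for all genes. Rbp4 is part of that count and median, and the rule used its re-adherent value, so neither supports anything about the set. Both comparisons use the non-adherent array, so a high or low spot on it moves both in opposite directions.

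**Figure D1:**
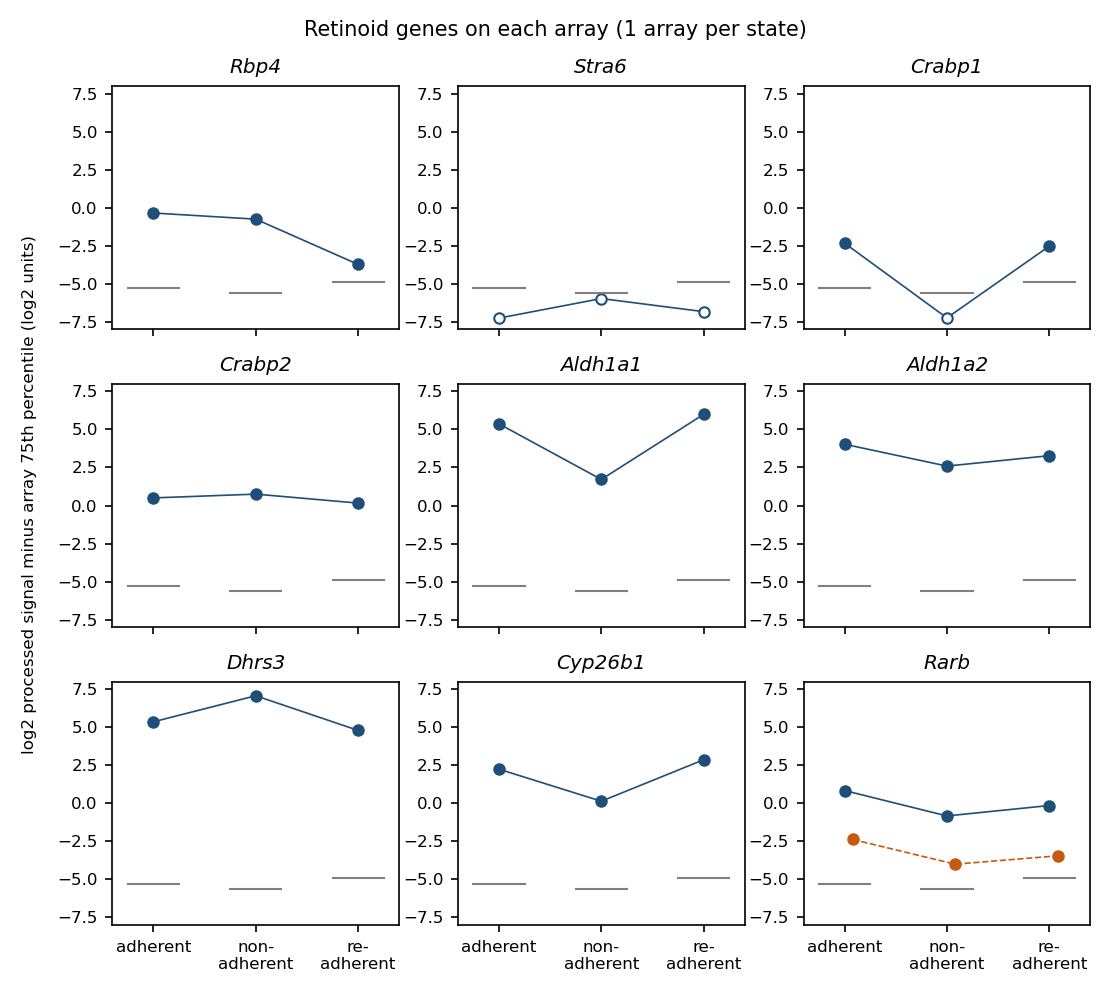
Signal of each of the 9 genes on the 3 arrays, as log2 of the processed signal minus the 75th percentile of the array, with technical error bars that are hidden by the points. Open circles, drawn without error bars, are spots not well above background, grey dashes the lowest signal well above background on each array and the orange line the second Rarb probe, and Rbp4 differs by -2.97 between the third array and the second.

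The transport gene Rbp4 codes for the plasma carrier of retinol. Its signal was 512 in adherent, 414 in non-adherent and 41.0 in re-adherent cells, in the scanner's linear units. It was therefore high on the first 2 arrays and low on the last, where it was still well above background. After scaling each array to its 75th percentile, the log2 difference between non-adherent and adherent cells was -0.40 ± 0.20 (technical error), a 1.32-fold lower level. Re-adherent cells were 7.85-fold lower than non-adherent cells (log2 -2.97 ± 0.25), a value that shares its re-adherent array with the rule. The difference that the choice of the set rests on, re-adherent against adherent, was -3.38 ± 0.25, or 10.4-fold lower. Normexp correction, another background correction, adds an offset to every signal and was followed here by quantile normalization between arrays. With it these last 2 values were -1.99 and -2.38. Stra6, the receptor for RBP4, gave 4.27, 11.1 and 4.76, all under the lowest signals well above background of these arrays (16.7, 14.0 and 18.3), so no fold is given.

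The cytosolic carriers of retinoic acid behaved differently from each other. Crabp1 gave 130 in adherent, 4.61 in non-adherent and 94.1 in re-adherent cells, and only the non-adherent spot was not well above background. Against the lowest signal well above background there, Crabp1 was at least 9.92-fold lower in suspension and at least 8.64-fold higher after re-adhesion. With normexp correction the log2 differences were -1.43 and 1.40. The re-adherent level differed from the adherent one by -0.20 ± 0.22 on the log2 scale, within the technical error. Crabp2, which hands retinoic acid to its receptors in the nucleus, gave 920, 1170 and 604. All 3 Crabp2 signals lay within 2-fold of each other, with log2 differences of 0.25 on entering suspension and -0.59 on re-adhesion, each ± 0.20.

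Of the enzymes that make retinoic acid, Aldh1a1 showed the widest swing. Its signal was 26866 in adherent, 2284 in non-adherent and 34497 in re-adherent cells, so that suspension stood apart from both attached states. Aldh1a1 was 12.6-fold lower in suspension (log2 -3.65 ± 0.20), and 0.897% of all measured genes were as low or lower. It was 19.4-fold higher after re-adhesion (4.28 ± 0.20), a difference matched or passed by 0.702% of genes. Re-adherent cells were 1.54-fold above adherent cells.

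Aldh1a2, the enzyme known from the epicardium, gave 10618, 4194 and 5238. It was 2.71-fold lower in suspension (log2 -1.44 ± 0.20), with 7.92% of genes as low or lower. On re-adhesion it was 1.61-fold higher, under the 2-fold limit, and the re-adherent level was 1.69-fold below the adherent one. Between the attached states Aldh1a2 was thus lower after re-adhesion. Aldh1a1 was higher there by 0.63 on the log2 scale, but by 0.16 with spike-in scaling. Both values use the pair of arrays that the rule used and are description only.

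Dhrs3, the retinal reductase, was highest in suspension. Its signal was 26584 in adherent, 93331 in non-adherent and 14961 in re-adherent cells. The non-adherent level was 3.28-fold above the adherent one (log2 1.71 ± 0.20), with 8.28% of genes as high or higher. Re-adherent cells were 4.85-fold below non-adherent cells (-2.28 ± 0.20) and 1.48-fold below adherent cells. None of the 3 spots was marked as saturated.

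Cyp26b1, which breaks retinoic acid down, moved the other way from Dhrs3. It gave 3077 in adherent, 765 in non-adherent and 3931 in re-adherent cells. The level in suspension was 4.30-fold lower (log2 -2.11 ± 0.20; 3.88% of genes as low or lower), and after re-adhesion it was 6.61-fold higher than in suspension (2.73 ± 0.20). The re-adherent level was 1.54-fold above the adherent one, as for Aldh1a1.

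Rarb, the receptor gene whose promoter pair is printed above, was read by a pair of probes. The brighter probe gave 1163 in adherent, 391 in non-adherent and 489 in re-adherent cells, and the dimmer one 125, 43.5 and 49.4. On both probes the adherent array was highest. Rarb was 3.18-fold lower in suspension by the brighter probe (log2 -1.67 ± 0.20) and by -1.62 ± 0.23 on the log2 scale by the dimmer one. Re-adhesion went with a log2 difference of 0.69 ± 0.20 by the brighter and 0.55 ± 0.26 by the dimmer probe, neither over 2-fold. Against adherent cells the re-adherent level was -0.98 by the brighter and -1.08 by the dimmer probe, on either side of the 2-fold limit.

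**Figure D2:**
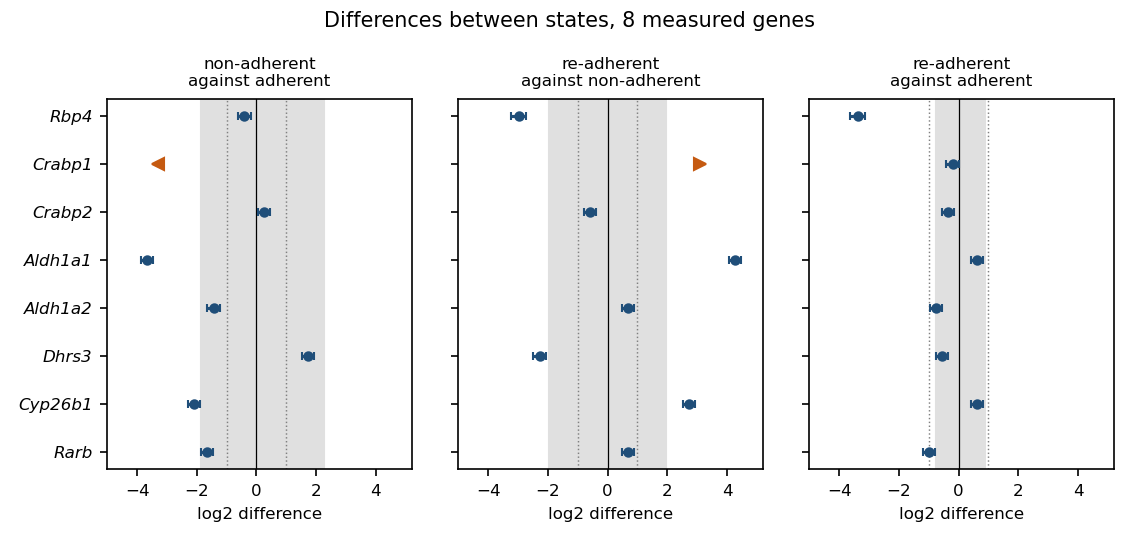
Log2 difference of each of the 8 measured genes in the 3 comparisons, with technical error bars. Grey bands span the 5th to the 95th percentile of all genes, dotted lines mark 2-fold and orange triangles are lower limits for Crabp1; Aldh1a1, Crabp1 and Cyp26b1 lie below the band in suspension, and Rbp4 lies far below it in the re-adherent against adherent comparison.

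Side by side, the genes had different orders of level over the 3 arrays. Aldh1a1, Cyp26b1, Crabp1, Aldh1a2 and Rarb were all lowest in suspension. Their order on the attached arrays uses the pair of arrays that the rule used and is description only. Aldh1a1 and Cyp26b1 were higher on the re-adherent array, by 0.63 and 0.62 on the log2 scale, but by 0.16 and 0.15 with spike-in scaling. Crabp1, Aldh1a2 and Rarb were higher on the first array, for Crabp1 within the technical error. In all 5 the attached levels lay within 2-fold of each other, although the dimmer Rarb probe was just past that. Dhrs3 and Crabp2 were highest in suspension and lowest after re-adhesion, although for Crabp2 every difference was under 2-fold. Rbp4 was lowest after re-adhesion. Of the 8 genes, 1 (Rbp4) was over 2-fold lower after re-adhesion than in the first attached state and 0 were that much higher. Of all genes, 2.94% were lower and 4.07% higher by this measure. The rule chose Rbp4 by this contrast, and nothing is read from the count. These 3 comparisons share their arrays and are not independent.

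Genes whose pattern lay nearest to that of Rbp4 were sought among 13474 other genes well above background on all 3 arrays, by the root mean square distance of the differences from the adherent array, on the log2 scale. The nearest were Ccl5, a chemokine, at a distance of 0.20, then Ptn, a secreted growth factor, at 0.34, Ndufa4l2 at 0.46, Lgi2 at 0.51 and Itgb7, an integrin subunit, at 0.61. Ccl5 gave 1236, 1205 and 103, and Ptn 733, 735 and 45.5, both near level on the first 2 arrays and lower on the last, as Rbp4 was. With 3 arrays, likeness rests on 2 differences per gene, including the re-adherent against adherent difference that the rule used. The genes named were picked for this likeness, so it is description only.

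Beyond the 9 genes, 59 others of retinoid handling and response were listed by role, and 46 of them were measured. In suspension 5 of the 46 were lower and 13 higher by more than 2-fold, beside 13.8% and 15.8% of all genes, with a median log2 difference of 0.19 (-0.05 with spike-in scaling). On re-adhesion 11 were over 2-fold lower and 5 higher than in suspension, beside 13.9% and 14.9% of all genes (median -0.06). Between re-adherent and adherent cells 2 were lower, 1 was higher and 43 were within 2-fold, beside 2.94% lower and 4.07% higher of all genes, with a median of 0.05 whose sign turned under 4 of the other settings, the lowest being -0.40 with spike-in scaling.

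Among the other carriers, Stra6l, a receptor for RBP4 related to Stra6, gave 180, 999 and 142, with a log2 difference of 2.38 in suspension and -2.45 on re-adhesion. Rbp7, a retinol-binding protein of fat and endothelium, gave 9.91, 125 and 4.59 and was well above background in non-adherent cells only. It was at least 6.95-fold higher in suspension and at least 5.28-fold lower after re-adhesion, with log2 differences of 1.20 and -1.29 under normexp correction.

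Among the other enzymes, Rdh10, the main retinol oxidase of the embryo, differed by -0.18 in suspension and -0.19 on re-adhesion. Dhrs9, a retinol dehydrogenase, gave 57.4, 353 and 69.0, with log2 differences of 2.52 and -1.99 (1.68 and -1.35 with normexp correction). Of the ALDH1A relatives, Aldh1a3 gave 402, 416 and 689 and Aldh1a7 gave 615, 105 and 254. Aldh1a7 thus shared the low level of Aldh1a1 in suspension (log2 -2.64). Between re-adherent and adherent cells Aldh1a7 differed by -1.01 on the log2 scale, where Aldh1a1 was at 0.63 (0.16 with spike-in scaling). Aldh1a7 is a close copy of Aldh1a1, and cross-hybridisation between their probes was not tested. Cyp26a1, the other well known CYP26 gene, and Lrat, which stores retinol as ester, did not reach a signal well above background on the 3 arrays.

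All 12 listed receptors and co-regulators were well above background on every array. None was over 2-fold lower and 3, all of them co-regulators, were over 2-fold higher in suspension, beside 13.8% and 15.8% of all genes. By a second probe the highest of the 3 was at 0.94 on the log2 scale, under 2-fold. Of the sister receptors of Rarb, Rara was at 0.41 on the log2 scale with a second probe at -0.15, and Rarg at -0.73. Rxra was at -0.38 with a second probe at 0.49, so for Rara and Rxra the direction is not settled. Rxrg was at 0.37 with a second probe at 4.68, both higher but of different size. Rxrb was at 0.48.

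Of 14 genes known to respond to retinoic acid, 10 were measured, and in suspension 3 were lower and 3 higher by more than 2-fold, beside 13.8% and 15.8% of all genes. Rarres1 and Rarres2, named for their response to retinoids, were among the higher ones, with log2 differences of 2.01 and 2.60 in suspension and -1.95 (-1.32 with normexp correction) and -3.81 on re-adhesion. The signal of Rarres2, which codes for the chemokine-like protein chemerin, was 336, 2175 and 120.

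**Figure D3:**
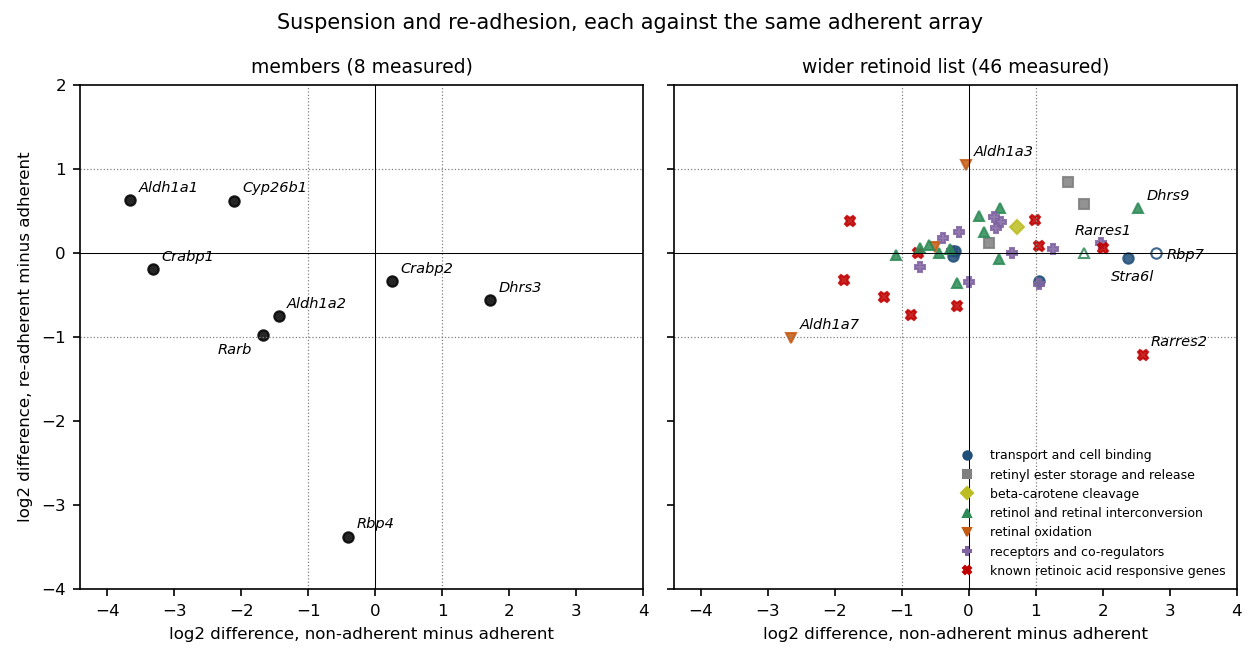
Log2 difference in suspension (x axis) against that after re-adhesion (y axis), both from the adherent array, for the 8 measured genes and the 46 measured genes of the wider list, coloured by role. Dotted lines mark 2-fold and open symbols genes not well above background on either attached array; Rbp4 alone lies below -2 on the y axis, while Aldh1a7 and Rarres2 lie just past -1.

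All 10 fibroblast and myofibroblast markers were well above background on all 3 arrays. So were the 12 macrophage and the 9 epicardial and mesothelial markers measured, so this cannot check the label of the cells. Acta2, the smooth muscle actin of myofibroblasts, was lower by -6.64 in suspension on the log2 scale and differed by -0.07 between the attached states. Of the 10 markers 4 were over 2-fold lower and 2 higher in suspension, the latter being the matrix proteoglycans Lum (3.56) and Dcn (1.69), which also differed by -2.85 and -1.51 between re-adherent and adherent cells. In bulk RNA, fewer cells of a type and less RNA per cell cannot be told apart. Other cell types' markers moved as well. Beside the counts here, 13.8% of all genes were over 2-fold lower and 15.8% higher in suspension. On re-adhesion 14.9% were higher than in suspension, and 2.94% were lower in re-adherent against adherent cells. Macrophage markers (12 of 14 measured, all above background on each array) had summed levels of 155, 896 and 342 times the 75th percentile, and 11 of the 12 were over 2-fold higher in suspension. Fat cell markers (7 of 8 measured) summed to 5.39, 34.1 and 4.31, and Adipoq and Plin1 were above background in suspension only, as Rbp7 was. Endothelial markers (10 of 10) summed to 23.7, 34.5 and 22.3, yet 5 of the 10 were over 2-fold lower in re-adherent against adherent cells, with Cdh5 at -3.18. Epicardial and mesothelial markers (9 of 10) summed to 8.11, 3.13 and 11.2, lowest in suspension as Aldh1a1, Cyp26b1, Crabp1, Aldh1a2 and Rarb were. Only 2 of the 9, Tbx18 and Krt19, were over 2-fold lower in suspension. Msln (log2 0.83) and Gpm6a (0.08) were above their adherent level there. Of the 9, 6 were over 2-fold higher after re-adhesion than in suspension. Pericyte markers (6 of 6) summed to 37.4, 59.1 and 36.1, but Mcam, the brightest, made up most of this sum. In suspension 1 of the 6 was over 2-fold lower (Cspg4, log2 -2.06) and 2 were over 2-fold higher, so the sum does not stand for the list. Cardiomyocyte markers (5 of 8) summed to 1.18, 1.95 and 3.36. The cardiomyocyte sum does not stand for its list either. On re-adhesion 3 of its 5 genes were below their level in suspension (median log2 difference -0.78), while Tnnt2, the brightest, was at 1.15. The part of these cell types in the retinoid results was not tested.

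**Figure D4:**
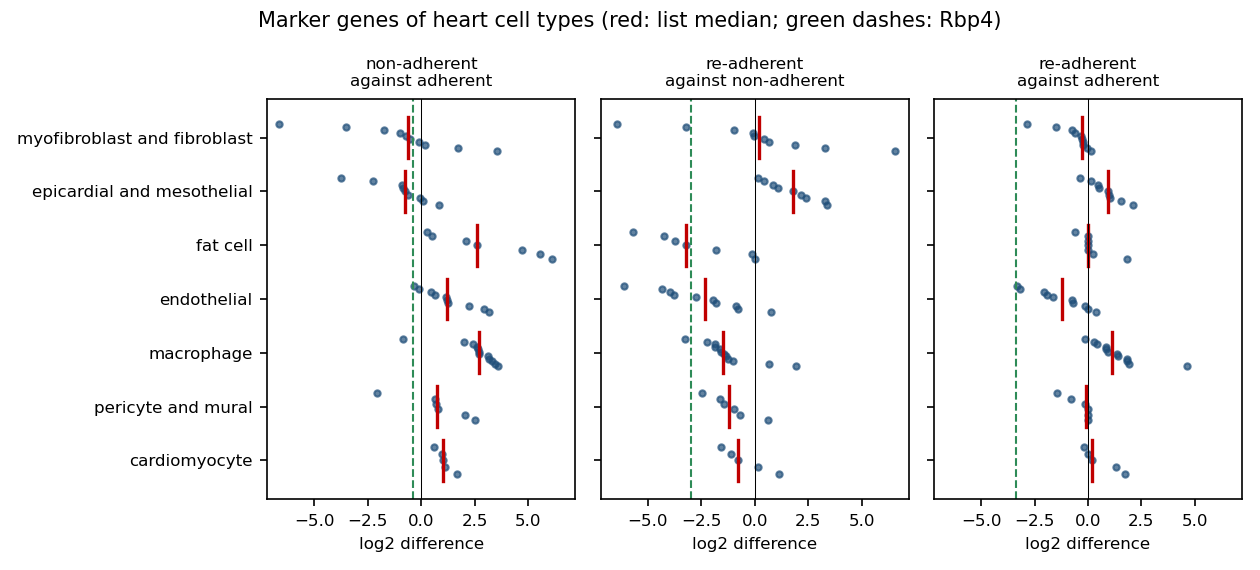
Log2 differences of the markers of 7 cell types in the 3 comparisons, 1 point per gene with the median of each list as a red bar and the value of Rbp4 as a green dashed line. Macrophage and fat cell medians lie above 2 in suspension, and the epicardial and mesothelial median lies at 1.81 on re-adhesion.

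Of 59305 spots per array, 58.1%, 59.9% and 53.9% were well above background in the order adherent, non-adherent and re-adherent, and the 75th percentile signals were 651, 697 and 541. No spot of the 9 genes was marked non-uniform or an outlier. Around their spots the median difference of neighbouring spots lay between -0.29 and 0.24 on the log2 scale. Probes spotted 10 times per array had a median SD of the difference of 0.06 to 0.08, below the technical error of 0.20 used here, and both leave out variation between cultures.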

How the data were processed

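The deposited scanner files held spot intensity from 1-colour SurePrint G3 mouse 8x60K arrays, which the authors had read with Agilent Feature Extraction, version 10.10.1.1. The processed signal had its background subtracted and came with an error and quality flags for each spot. The deposited matrix of the series held the same intensity times 1 constant per array (1.52, 1.52 and 1.62) and served as an alternative. Non-uniform and outlier spots were left out, and spots of a probe were averaged. The log2 signal minus the 75th percentile of the array was used. Genes were named by RefSeq accession in the GRCm38.p6 table, and each was represented by its brightest probe well above background on at least 1 array. A signal not well above background was raised to the lowest one that was, which gives the "at least" folds. Differences over 2-fold were counted, and no test was made with 1 array per group. Genes named were the 9 genes, in the wider list the main genes of each role and any gene over 4-fold apart, and the 5 genes nearest to Rbp4. Some genes that this rule names are not reported here. The genes and lists were chosen with earlier results of these data known. Normexp correction (limma 3.58.1, R 4.3.3) was run on the median signal, since the files used here have no mean signal. Quantile normalization between arrays followed it. Other values were computed in Python 3.11.15 with pandas 2.3.3, and the scripts were tested on simulated data. The number of arrays limits the precision.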

Additional observations from a re-analysis of the deposited data

How the results depend on the processing

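No paired analysis was possible because a state was read on 1 array only, and for the same reason no array could be left out. Of 24 differences of the 8 measured genes, the 12 over 2-fold kept their direction and stayed over 2-fold under every alternative that gave a value, and none of the other 12 changed sign. Crabp1 gave no value when only probes well above background on all 3 arrays were kept. Rbp4, re-adherent against adherent, ranged from -3.84 (spike-in scaling) to -2.38 (normexp), and Crabp1 in suspension from -4.92 (no floor) to -1.43 (normexp). Spike-in scaling moved the median of all genes to -0.30, -0.10 and -0.38 in the 3 comparisons. The number of the 8 genes over 2-fold lower in re-adherent than in adherent cells, 1 as reported, was 3 without scaling, 4 with spike-in scaling, and 2 with quantile normalization, with the authors' values and with the mean of probes. At a 4-fold limit, 3 of the 8 genes were lower and 0 higher in suspension. For the wider list that limit gave 1 lower and 5 higher in suspension, 3 lower and 1 higher on re-adhesion, and 0 lower and 0 higher in re-adherent against adherent cells. The wider list had 3 genes higher on re-adhesion without scaling, with spike-in scaling, normexp, the authors' values or local medians subtracted, and under each of these 5 settings 0 were higher in re-adherent against adherent cells. The number of its genes lower there, 2 as reported, was 1 with median scaling and with quantile normalization, 4 with spike-in scaling and 0 with normexp. The cause of these shifts was not tested. No share of all genes is given at the 4-fold limit or under the other settings, so nothing is read from the counts. Settings for the named genes of the wider list, the genes nearest to Rbp4 and the medians of lists were added after seeing the data, and no difference over 2-fold among them changed sign. Signals near the background, as for Stra6 and for Crabp1 in suspension, give limits only.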
